A study of Rattus norvegicus with 6 samples.

Results

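This account follows the extracellular metalloproteases and their inhibitors in cultured rat vascular smooth muscle cells: the matrix metalloproteases (MMP), the membrane-bound ADAM proteases, the secreted ADAMTS proteases, the protease-like ADAMTSL proteins and the tissue inhibitors of metalloproteases (TIMP). Members were chosen by name alone, as every row symbol of the count table that is Mmp, Adam, Adamts, Adamtsl or Timp followed by a number. The rule gave 72 of 18631 genes: 23 MMP, 22 ADAM, 19 ADAMTS, 5 ADAMTSL and 3 TIMP genes. The opposite-strand gene Mmp24os, which encodes no protease, was left out. Polyadenylated RNA was sequenced in 3 libraries labelled MIAT knockdown and in 3 whose titles read Scr and whose genotype is given as wild type, the controls. MIAT is a long noncoding RNA. Per the labels' protocols, cells received small interfering RNAs with antisense oligonucleotides, 50 nM together, for 72 h. The labels give that same treatment text for all 6 libraries, so what the controls received is not stated, and they give no rat strain, age, vessel, culture or clone. Miat itself was not analysed here, so the groups go by their labels.

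Metalloproteases cut proteins with the help of a zinc ion and are made as inactive precursors. MMPs degrade collagens, elastin, proteoglycans and other matrix proteins, ADAMs mostly release the outer parts of membrane proteins, and ADAMTS enzymes trim procollagens and cut proteoglycans such as versican and aggrecan. ADAMTSL proteins share the ancillary domains of ADAMTS but lack the protease domain, and TIMPs bind and block the active site of the proteases. In the vessel wall, smooth muscle cells need such enzymes to loosen their basement membrane and move, and the balance of MMPs and TIMPs is a classic theme of intimal thickening and vein graft remodelling.

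Sequence upstream of the genes was read from RefSeq windows of the GRCr8 assembly, which held 50 of the 72 members. Mmp2, Mmp9, Mmp14 and Adamts5 were among those without a window. The 250 bases before each annotated start were searched for an AP-1 site (TGAGTCA or TGACTCA, which covers both strands), for a TATA box (TATAAA on the gene's strand) and for a GC box (GGGCGG or CCGCCC, both strands). The motifs do not share letters where they were found in the windows shown. The 100 bases before the start are printed for 4 MMP genes that hold an AP-1 site and a TATA box and, for contrast, for Adam12 and Timp3, which fell and hold GC boxes. Capitals mark the motifs, and all are written 5′ to 3′ on the gene's strand.
Mmp3 (chr8:12925181-12925280, plus strand): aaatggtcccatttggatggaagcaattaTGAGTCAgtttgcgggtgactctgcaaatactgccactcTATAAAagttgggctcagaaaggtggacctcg
Mmp10 (chr8:12974607-12974706, plus strand): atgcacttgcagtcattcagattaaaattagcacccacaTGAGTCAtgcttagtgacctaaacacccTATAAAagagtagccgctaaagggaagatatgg
Mmp13 (chr8:12782729-12782828, plus strand): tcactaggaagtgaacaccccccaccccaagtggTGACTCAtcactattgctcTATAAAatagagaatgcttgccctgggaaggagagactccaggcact
Mmp12 (chr8:12866552-12866651, plus strand): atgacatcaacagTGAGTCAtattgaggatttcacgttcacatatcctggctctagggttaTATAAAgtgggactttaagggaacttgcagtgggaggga
Adam12 (chr1:198443681-198443780, minus strand): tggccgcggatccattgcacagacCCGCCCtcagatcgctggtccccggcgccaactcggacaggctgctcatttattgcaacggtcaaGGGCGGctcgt
Timp3 (chr7:19459559-19459658, minus strand): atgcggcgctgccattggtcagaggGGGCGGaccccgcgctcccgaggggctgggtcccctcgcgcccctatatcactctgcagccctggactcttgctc

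Of the 50 members with a window, 7 held an AP-1 site (14%), against 4.42% of all 27457 genes with a window. They were Mmp1, Mmp3, Mmp7, Mmp10, Mmp12, Mmp13 and Adam19. All but Adam19 also held a TATA box, so 6 members (12.0%) had both motifs, against 0.521% of all genes. Of these, Mmp3, Mmp10, Mmp12 and Mmp13 lie close together on chromosome 8, so they may not count as independent genes in this share. GC boxes were in 27 members (54.0%), against 33.5% of all genes. Among the 17 members that fell in the comparison below and had a window, 14 (82.4%) held a GC box. The share was 24 of 36 (66.7%) among all tested members with a window, those that fell included, and 3 of 14 (21.4%) among members with a window but too few counts to test. GC boxes are common upstream of broadly expressed genes, and neither expression level nor GC content was matched here. A match shows only that these letters are present, and the factors were not measured at these windows.

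Of the 72 members, 45 reached a mean of 1 CPM (counts scaled to library size) over the 6 libraries, namely 12 MMP, 13 ADAM, 13 ADAMTS, 4 ADAMTSL and 3 TIMP genes. Levels of different genes are compared here in the deposited FPKM, which divide counts by gene length and library total. Timp1, an inhibitor of most MMPs, was highest at a mean of 992 FPKM, followed by the gelatinase gene Mmp2 at 523, Timp2 at 274 and Mmp14, the gene of a membrane-anchored collagenase, at 243. Next came Adam12 at 175, Adamts1 at 161 and Adam19 at 102 FPKM, 2 ADAM genes and a proteoglycan-cleaving ADAMTS gene. A few members carried each family: the leading 3 made up 89.6% to 93.5% of the summed MMP FPKM per library, 72.7% to 78.9% of the ADAM and 69.1% to 80.6% of the ADAMTS FPKM.

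**Figure D1:**
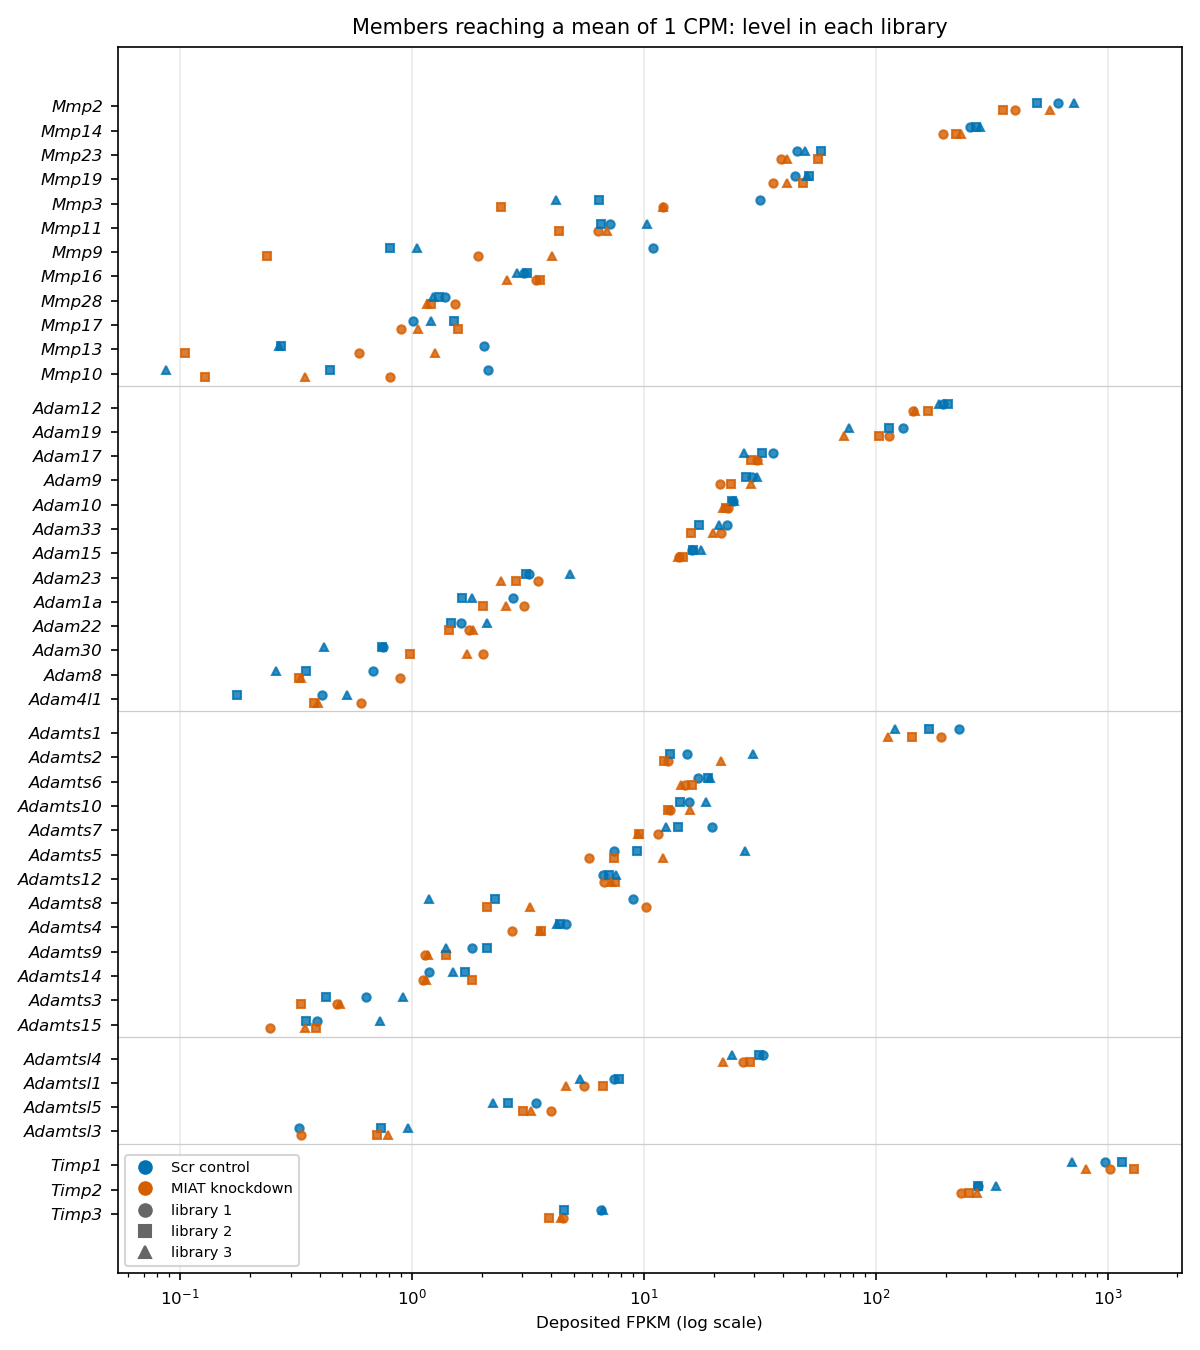
Deposited FPKM (log scale) of the 45 members reaching a mean of 1 CPM, by family, with 1 symbol per library (blue: 3 controls, orange: 3 knockdown libraries, shape: library number). Timp1, Mmp2, Timp2 and Mmp14 lie at the top of the range, and libraries of 1 group lie far apart for Mmp3, Mmp9, Mmp10, Mmp13 and Adamts8.

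The other 27 members were scarce. Mmp25, Adam4 and Adamtsl2 had between 0.50 and 0.954 CPM, and 24 had too few counts to be tested, with means of 0.0089 to 0.393 CPM. These 24 include the collagenase genes Mmp1, Mmp1b and Mmp8, the matrilysin gene Mmp7, the macrophage elastase gene Mmp12, the enamel protease gene Mmp20, the von Willebrand factor protease gene Adamts13 and the sperm-surface genes Adam2, Adam3a, Adam5, Adam18 and Adam32. Mmp8 had 3 counts in all 6 libraries together, Mmp7 and Adam28 had 2, and Adamts13 and Adamts19 had 1. Mmp12 is among the genes whose upstream window holds both motifs but whose mean was only 0.110 CPM.

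Total counts were 17793811 to 20121161 per library. The smooth muscle label was checked against 10 marker genes: Acta2 averaged 2506 CPM and Tagln 3029 CPM over the 6 libraries, 9 of 10 reached 1 CPM, and Des did not (0.469 CPM). Their sum was 8211 to 11775 CPM in knockdown and 9881 to 12071 CPM in control libraries, and 4 of 10 fell. Of 7 endothelial markers, Pecam1, Cdh5, Vwf and Tie1 lay under 1 CPM, and the sum, mostly Egfl7, was 43.6 to 47.5 against 50.0 to 56.2 CPM, with Kdr the 1 that fell. Of 8 leukocyte markers, 6 were among the counted genes, and 4 of these reached 1 CPM. The 6 summed to 22.2 to 26.5 against 21.6 to 34.9 CPM, with Ptprc at 0.00868 CPM. Genes used as markers of adventitial fibroblasts were abundant, as they can be in cultured smooth muscle cells, and lower in the knockdown libraries, 1429 to 1735 against 2019 to 2175 CPM for all 6. Of these, Pdgfra, Dpt, Dcn and Lum fell, Pi16 did not pass, and Cd34 was at 0.283 CPM. Their part in the changes below was not tested, and in such bulk RNA fewer cells of a type and less RNA per cell cannot be told apart.

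The comparison asks which of these genes differ between the libraries labelled MIAT knockdown and the controls. Most abundant members were lower: 23 of the 48 tested members fell, 1 rose and 24 did not pass. Here "fell" and "rose" mean an adjusted p under 0.05 in edgeR's quasi-likelihood test with the replicate number as a block, with Benjamini-Hochberg adjustment over all 13423 tested genes. Of all tested genes, 11.1% fell and 10.5% rose in that fit, against 47.9% and 2.08% of the tested members. The falls were modest, with log2 fold changes of -0.76 to -0.20. The median over the 48 tested members was -0.32, and over all tested genes -0.01. Among the 21 members of at least 10 FPKM, 18 fell, 0 rose and 3 did not pass (Adam17, Mmp3 and Timp1), while of 5549 genes at this level 13.9% fell and 15.4% rose.

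The block was used because same-numbered libraries deviated together, and without it the calls are lost. The fit without the block, the design set for the comparison, called 0 members and 0 of 13423 genes in edgeR, with adjusted p values of 0.113 to 0.585 for the 24 members. At an unadjusted p under 0.05 it held 15 members, 14 of them lower, against 19.2% of all genes in either direction and 8.76% lower, and the median log2 fold change was -0.33. DESeq2 without the block called 6 of the 24, against 5.21% of all genes: Mmp14, Adam12, Adamts6, Adamts7 and Timp3 were lower (2.47% of all genes) and Adam30 higher (2.73%). DESeq2 with the block called 20 members lower and 1 higher, against 6.92% and 4.96% of all genes, 11.9% in all; the edgeR block fit called 21.6% in all. All 23 members that fell were lower in 3 of 3 same-numbered pairs, and in 12 of them the groups did not overlap. The block fit favours genes whose pairs agree, so the agreement of pairs is not separate support for these calls. Of the 48 tested members, 26 were lower and 4 higher in 3 of 3 pairs (28.5% and 28.0% of all tested genes), and 12 were lower and 1 higher without overlap (11.8% and 14.2%).

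Leaving out a pair of libraries changed the counts. The block fit called 13 members lower and 0 higher without pair 1, 9 and 1 without pair 2, and 27 and 1 without pair 3. The shares of all genes called in these fits are not given here, so the counts have no background to be read against. Mmp2, Mmp14, Adam12, Adamts2, Adamts5, Adamts7, Adamtsl1 and Timp3 were called without each pair in turn. Of these 8, all but Adamts5, lost in DESeq2 with the block, and Adamtsl1, lost with a correction for gene length, were called under all 10 alternatives with the block. With total counts as scaling, which moved the median of all genes by 0.11, 18 members fell and 1 rose, against 6.10% and 21.0% of all genes. That scaling ended the calls of Mmp23, Adam19, Adam10, Adam33 and Adamtsl4, and the correction for gene length, added after seeing the data, ended those of Adam19, Adam10, Adam33 and Adamtsl1.

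**Figure D2:**
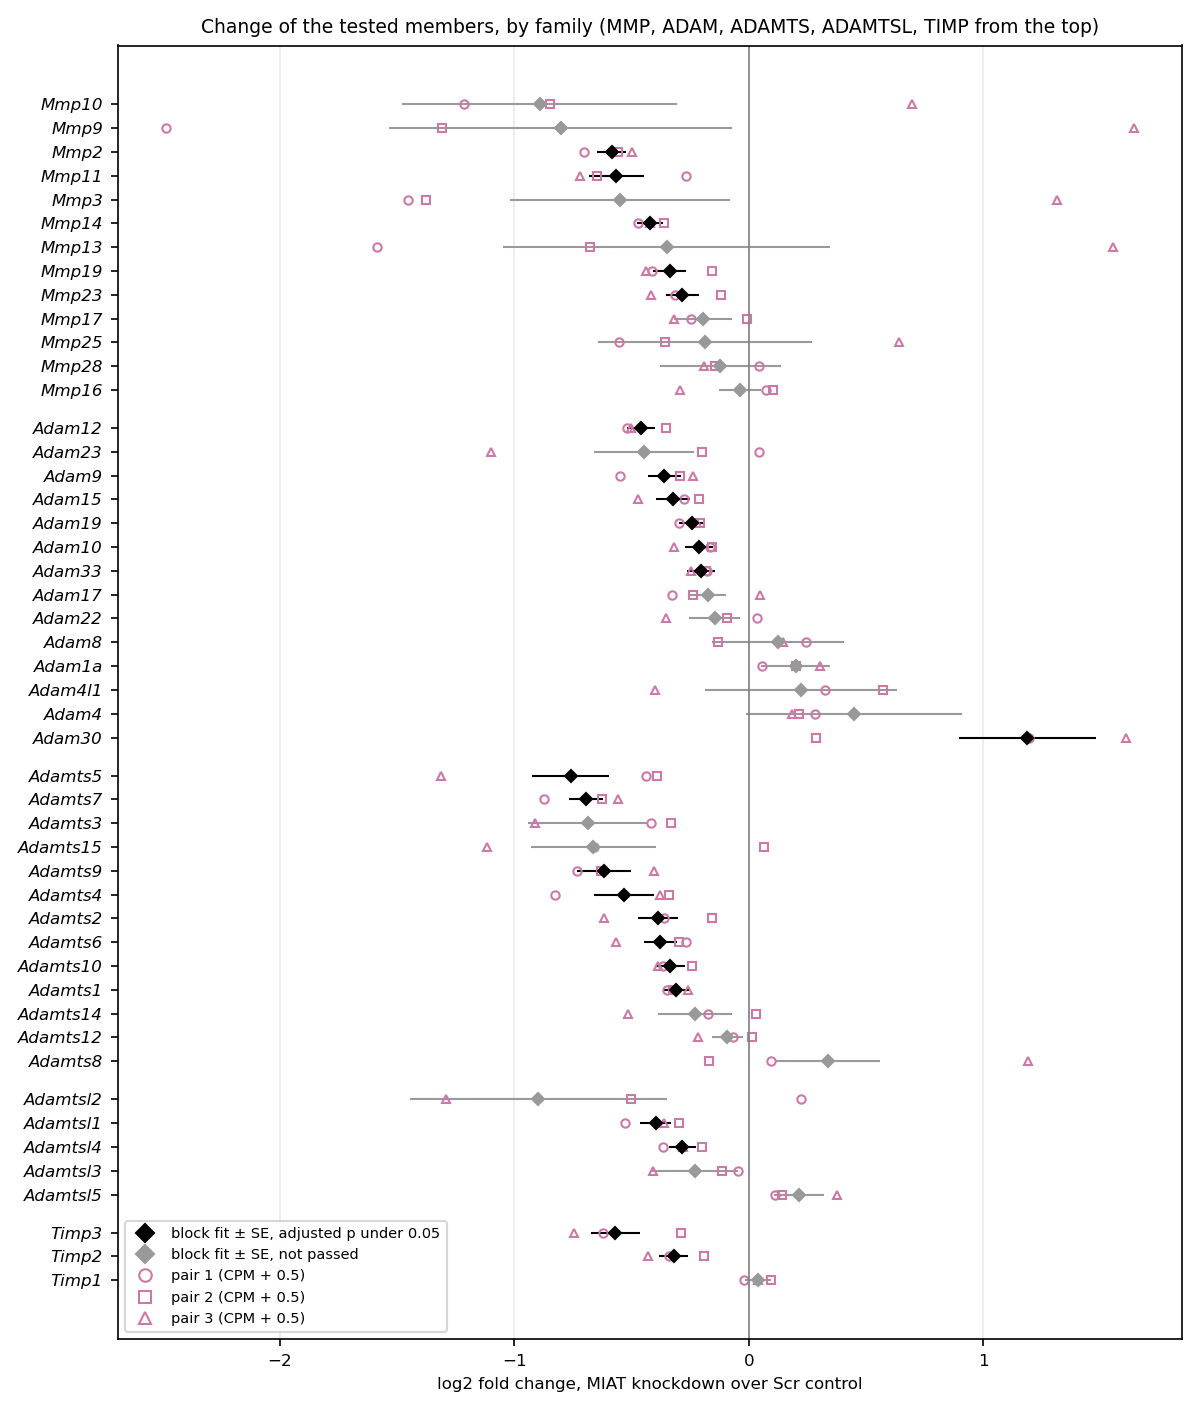
Log2 fold change of the 48 tested members, by family. Diamonds give the block fit with its standard error (black: adjusted p under 0.05), and open symbols give the difference within each same-numbered pair as log2(CPM + 0.5). The 23 black diamonds left of 0 span -0.76 to -0.20, Adam30 alone is black on the right, and the pairs of Mmp3, Mmp9, Mmp10 and Mmp13 lie on both sides of 0.

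In the following, CPM after TMM scaling are given in the order of libraries 1, 2 and 3, and a log2 fold change comes from the block fit unless stated. Among the 13 tested MMP genes, 5 fell, 0 rose and 8 did not pass, with a family median of -0.35 (-0.42 without the block). The 2 most abundant members, which act together at the cell surface, were both lower. Mmp2, the gelatinase that cuts denatured and basement membrane collagen, was at 1149, 1053 and 1661 CPM in the knockdown and 1869.9, 1551 and 2344 CPM in the control libraries. Knockdown library 3 lay above control library 2, so the groups overlapped, but each knockdown library was below the control of the same number. Mmp2 had a log2 fold change of -0.59 ± 0.0609 (SE) (edgeR block adjusted p = 0.00166; -0.58 and 0.224 without the block).

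Mmp14 encodes the membrane-type collagenase that activates the MMP2 precursor in a complex with TIMP2. It was at 454, 534 and 551 CPM in the knockdown against 631, 686 and 739 CPM in the control libraries, with no overlap. The log2 fold change was -0.42 ± 0.0548 (SE) (edgeR block adjusted p = 0.00299; 0.131 without the block and 0.0178 in DESeq2 without it). Of the other membrane-type MMPs, Mmp16 was at 36.3 ± 6.22 against 36.9 ± 1.23 CPM (SD, n = 3) and Mmp17 at 9.53 ± 3.04 against 10.8 ± 2.26 CPM, and neither passed. The secreted Mmp28, or epilysin, was at 1.98 ± 0.277 against 2.14 ± 0.0623 CPM and did not pass either.

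Mmp19, Mmp23 and Mmp11 fell at lower levels. Mmp19, a secreted MMP of broad substrate range, stood at 73.1, 102 and 85.8 CPM against 97.6, 114 and 117 CPM, a log2 fold change of -0.34. Its highest knockdown value came from library 2 and exceeded the lowest control value. Mmp23, a membrane-bound MMP of unusual domain structure, stood at 63.7, 94.7 and 68.7 CPM against 79.4, 103 and 92.0 CPM (-0.28), again with overlap. Mmp11, or stromelysin 3, which furin activates inside the cell, stood at 13.5, 9.55 and 15.1 CPM against 16.3, 15.3 and 25.2 CPM (-0.57), with every knockdown library below every control; it overlaps Chchd10 in the GRCr8 annotation. Without pair 1 the calls of Mmp19 (-0.30) and Mmp23 (-0.26) ended, and without pair 2 those of Mmp23 (-0.37) and Mmp11 (-0.51). Total count scaling also ended the call of Mmp23.

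For 4 MMP genes known to be inducible, the pairs disagreed in sign. Mmp3, the stromelysin that cuts many matrix proteins and activates other MMPs, was at 21.2, 4.40 and 21.5 CPM in the knockdown and 59.1, 12.2 and 8.35 CPM in the control libraries. Within pairs 1, 2 and 3 the log2 difference was -1.46, -1.38 and 1.31. Mmp9, the second gelatinase, was at 5.47, 0.698 and 11.6 against 32.9, 2.47 and 3.37 CPM, with pair differences of -2.49, -1.31 and 1.64. Control library 1 was the highest for both genes and knockdown library 2 the lowest, while in pair 3 the knockdown library was the higher one.

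A collagenase and another stromelysin gene, at lower levels, had the same signs in the 3 pairs. Mmp13, the rodent interstitial collagenase, stood at 1.46, 0.268 and 3.17 CPM against 5.39, 0.729 and 0.750 CPM, with pair differences of -1.59, -0.68 and 1.55. Mmp10, stromelysin 2, stood at 1.30, 0.215 and 0.571 CPM against 3.69, 0.786 and 0.161 CPM (-1.22, -0.85 and 0.70). None of the 4 genes passed (edgeR block adjusted p = 0.435 for Mmp3, 0.467 for Mmp9, 0.756 for Mmp13 and 0.308 for Mmp10). All 4 were called lower when pair 3 was left out. Pair 3 is the only pair in which they were higher, so those calls follow in part from its removal and are no separate support. Of the 4 genes, Mmp3, Mmp10 and Mmp13 hold the AP-1 site and TATA box shown above, at 71, 61 and 66 bases before the start for the first base of the AP-1 site. Mmp9 had no upstream window and was not searched. The highest control value exceeded the lowest by 7.08-fold for Mmp3, 13.3-fold for Mmp9, 7.38-fold for Mmp13 and 22.9-fold for Mmp10. A ratio over 3 among controls was found in 8 of the 45 members at 1 CPM or more and in 7.38% of all tested genes, and among knockdown libraries in 5 members and 4.30% of genes.

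**Figure D3:**
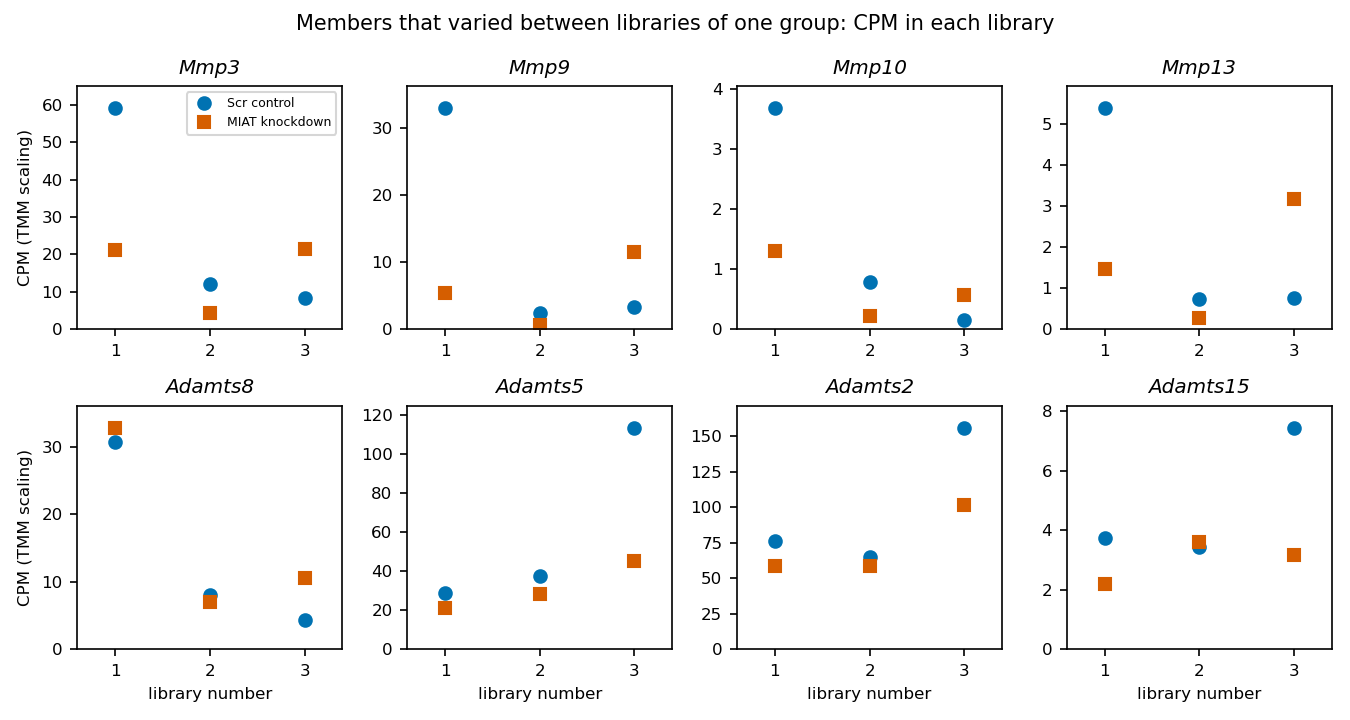
CPM after TMM scaling by library number, 1 symbol per library (blue circles: controls, orange squares: knockdown libraries), for 8 members chosen after their values were seen. Mmp3, Mmp9, Mmp10 and Mmp13 were lower in knockdown libraries 1 and 2 and higher in knockdown library 3 than in the control of the same number, and Adamts5 and Adamts2 were highest in the libraries numbered 3.

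Of 14 tested ADAM genes, 6 fell, 1 rose and 7 did not pass, with a median of -0.19. Adam12, or meltrin alpha, which releases growth factors and binding proteins, led the family. It was at 1116, 1337 and 1160.0 CPM in the knockdown and 1599.8, 1711 and 1645 CPM in the control libraries, and the groups did not overlap. Its log2 fold change was -0.46 ± 0.0588 (SE) (edgeR block adjusted p = 0.00286; 0.115 without the block and 0.00152 in DESeq2 without it). Adam19, meltrin beta and its close relative, stood at 708, 666 and 464 CPM against 872, 769.6 and 542 CPM (-0.24). In both groups library 1 was the highest and library 3 the lowest for Adam19, so the groups overlapped while all pairs were lower. The call of Adam19 ended without pair 1 (-0.21), without pair 2 (-0.26), under the length correction and when scaled by total counts.

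Of the 2 main sheddase genes, Adam10 fell and Adam17 did not pass. Adam10, the protease that starts Notch receptor cleavage, stood at 82.3, 84.1 and 80.0 CPM against 92.3, 93.8 and 99.9 CPM. The difference was small but without overlap, with a log2 fold change of -0.21 and an edgeR block adjusted p of 0.0357. Adam17, which releases tumour necrosis factor and ligands of the epidermal growth factor receptor, stood at 119, 116 and 124 CPM against 149.6, 137 and 119.7 CPM (-0.17 ± 0.0754 (SE), adjusted p = 0.133). Pair 3 was level for Adam17, at a log2 difference of 0.05, whereas pairs 1 and 2 were at -0.33 and -0.24. It was called lower when pair 3 was left out (-0.29). Adam10 lost its call without pair 1 (-0.24), pair 2 (-0.24) or pair 3 (-0.16).

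The other ADAM genes that fell also had at least 10 FPKM. Adam9, meltrin gamma, stood at 65.2, 75.6 and 91.2 CPM against 95.8, 92.7 and 108 CPM (-0.36), without overlap. Adam15, a membrane protease with an integrin-binding site, stood at 44.7, 47.9 and 45.2 CPM against 54.3, 55.6 and 63.0 CPM (-0.33), also without overlap. Adam33, known from smooth muscle and fibroblasts of the airway, stood at 64.9, 50.2 and 61.3 CPM against 73.5, 57.1 and 72.9 CPM (-0.20), with overlap and the highest adjusted p of the called members, 0.0411. Adam10 and Adam33 were lost in several alternatives, among them DESeq2 with the block and total count scaling. Calls ended for Adam9 without pair 1 (-0.26) or 2 (-0.39), for Adam33 without pair 1 (-0.21) or 2 (-0.21) and for Adam15 without pair 2 (-0.38).

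Adam30, a gene known mainly from testis, was the only member that rose. It stood at 6.61, 3.33 and 5.76 CPM against 2.61, 2.64 and 1.55 CPM, so the groups did not overlap, though pair 2 differed by only 0.29 on the log2 scale against 1.19 and 1.61 in pairs 1 and 3. The log2 fold change was 1.19 ± 0.292 (SE) (edgeR block adjusted p = 0.0233; 0.145 without the block and 0.0383 in DESeq2 without it), and the call ended without pair 1 (adjusted p = 0.0919). Adam22 and Adam23, which lack the catalytic zinc site and act as receptors of neuronal ligands, were at 15.5 ± 1.70 against 17.3 ± 3.86 and 8.06 ± 1.42 against 11.1 ± 3.3 CPM, and neither passed. Adam1a, Adam4, Adam4l1 and Adam8 had positive log2 fold changes of 0.12 to 0.45 and did not pass. Adam1a was at 7.01 ± 1.3 against 6.15 ± 1.59 CPM (SD, n = 3). Adam8 was at 1.99 ± 1.21 against 1.79 ± 0.874 and Adam4l1 at 1.08 ± 0.279 against 0.954 ± 0.475 CPM. Reads of Adam4 and Adam4l1 may be shared between near-identical copies.

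ADAMTS genes had the most falls: 8 of 13 tested fell, 0 rose and 5 did not pass, with a median of -0.39 (-0.44 without the block). Adamts7, which cuts cartilage oligomeric matrix protein and is linked to smooth muscle migration, stood at 67.1, 57.7 and 56.4 CPM against 123, 89.5 and 83.3 CPM. Every knockdown library lay below every control, and the log2 fold change was -0.69 ± 0.0729 (SE) (edgeR block adjusted p = 0.00166; 0.113 without the block and 0.00430 in DESeq2 without it). Its relative Adamts12 was at 72.5 ± 5.16 against 77.4 ± 7.59 CPM and did not pass (-0.09).

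Of 6 tested ADAMTS genes whose enzymes cut versican, aggrecan and related proteoglycans, 4 fell and 2 did not pass. Adamts1, the most abundant, stood at 793, 614 and 475 CPM against 1009, 769 and 568 CPM. Library 1 was the highest and library 3 the lowest in both groups, with pair differences of -0.35, -0.33 and -0.26 and a log2 fold change of -0.31 (edgeR block adjusted p = 0.00689; 0.537 without the block). Adamts5, the main aggrecanase, stood at 21.1, 28.3 and 45.3 CPM against 28.9, 37.3 and 113 CPM. Control library 3 stood far above the other controls there, and the log2 fold change of -0.76 with all pairs was -0.42 without pair 3, where the call held. The call of Adamts1 ended without pair 1 (-0.29) or 2 (-0.30).

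Adamts4, another aggrecanase, and Adamts9 were lower without overlap. Adamts4 stood at 8.54, 11.8 and 11.5 CPM against 15.5, 15 and 15.2 CPM (-0.53) and Adamts9 at 8.69, 11.2 and 9.14 CPM against 14.8, 17.6 and 12.3 CPM (-0.62). Both lost their calls without pair 2 (-0.62 and -0.60), Adamts4 also without pair 1 (-0.37). Adamts8 varied widely within each group, at 32.8, 7.03 and 10.5 CPM against 30.8, 7.97 and 4.34 CPM, with library 1 the highest in both groups, and did not pass; its log2 fold change of 0.34 was the only positive one in the family. Adamts15 was at 2.19, 3.6 and 3.17 CPM against 3.74, 3.42 and 7.44 CPM and did not pass (-0.66).

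Of the 3 procollagen N-propeptidase genes, 1 fell and 2 did not pass. Adamts2, which trims the N-terminal propeptide of fibrillar collagens, stood at 58.9, 58.4 and 102 CPM against 75.9, 65.2 and 156 CPM (-0.39, edgeR block adjusted p = 0.0151). Libraries numbered 3 were the highest in both groups, and without control library 3 the unblocked log2 fold change turned from -0.44 to 0.05. Adamts14 was at 6.84 ± 2.12 against 7.93 ± 1.5 CPM and Adamts3 at 1.92 ± 0.366 against 3.17 ± 1.28 CPM, and neither passed (-0.23 and -0.69).

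Both ADAMTS genes tied to fibrillin microfibrils fell. Adamts6 stood at 99.7, 111 and 98.0 CPM against 120.1, 136 and 145 CPM (-0.38), without overlap between groups, though another protein-coding gene overlaps it in the annotation. Adamts10 stood at 52.3, 53.3 and 64.8 CPM against 67.6, 63.2 and 84.9 CPM (-0.34), with knockdown library 3 above the lowest control. Without pair 2 the calls of Adamts6 (-0.42) and Adamts10 (-0.38) ended at adjusted p values just above the threshold, 0.0549 and 0.0515 in edgeR.

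Of the 5 ADAMTSL genes, 2 fell and 3 did not pass, with a median of -0.28 (-0.28 without the block). Adamtsl4, a matrix protein of fibrillin fibres and the most abundant, stood at 120.1, 133 and 101 CPM against 155, 153 and 122 CPM (-0.28). Adamtsl1, or punctin, stood at 60.1, 75.4 and 51.4 CPM against 86.9, 92.8 and 66.3 CPM (-0.40). For both, library 3 was the lowest of its group and the groups overlapped, while all pairs were lower. Without pair 1 (-0.24) or 2 (-0.33) the call of Adamtsl4 ended, as it did with total count scaling, and that of Adamtsl1 ended with the length correction. Adamtsl5 stood at 16.7, 13.1 and 14 CPM against 15.4, 11.9 and 10.7 CPM, the only family member with a positive log2 fold change (0.21), and did not pass. Adamtsl3 and Adamtsl2 had log2 fold changes of -0.23 and -0.90 at low counts and did not pass. Adamtsl3 was at 4.3 ± 1.76 against 5.14 ± 2.6 CPM (mean ± SD).

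Of the 3 inhibitor genes, 2 fell and Timp1 did not pass, with a median of -0.32 (-0.33 without the block). Timp1 stood at 772, 1011 and 618 CPM against 783, 948 and 602 CPM, with pair differences of -0.02, 0.09 and 0.04. Its log2 fold change was 0.04 ± 0.0549 (SE), and library 2 was the highest and library 3 the lowest in both groups. Timp2, which also takes part in the activation of the MMP2 precursor, stood at 797, 901 and 959 CPM against 1009, 1028 and 1293 CPM, without overlap (-0.32, edgeR block adjusted p = 0.0103; 0.243 without the block). Timp3, which binds to the matrix and also blocks ADAM and ADAMTS enzymes, stood at 19.1, 17.2 and 19.0 CPM against 29.7, 21.1 and 32.2 CPM, without overlap. Its log2 fold change was -0.57 (adjusted p = 0.00826; 0.145 without the block and 0.0448 in DESeq2 without it). Timp2 lost its call without pair 1 (-0.31) or 2 (-0.39). Timp1 turned negative with a length correction, to -0.088, and without knockdown library 2 or control library 3 when unblocked. Timp2 overlaps Cep295nl, and Timp3 lies within Syn3, which was at 2.10 ± 0.0878 against 3.39 ± 0.263 CPM; the part of shared reads was not tested. Timp3 was the scarcest of the 3, at a mean of 5.08 FPKM against 992 for Timp1.

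Summed over each family, TMM-scaled CPM were 2049 ± 355 in the knockdown and 2922 ± 425 in the control libraries for MMPs (SD, n = 3). They were 2241 ± 173 against 2876 ± 155 for ADAMs and 1074 ± 133 against 1385 ± 162 for ADAMTS genes. For ADAMTSL they were 199.6 ± 27.7 against 244 ± 31.3, and for TIMPs 1704 ± 195 against 1916 ± 88.2. On this CPM scale every MMP, ADAM and ADAMTS knockdown sum was below every control sum, whereas the ADAMTSL and TIMP sums overlapped. In summed FPKM the MMP and ADAMTS groups overlapped as well. There MMP knockdown library 3 (912) exceeded control library 2 (897), and ADAMTS knockdown library 1 (273) exceeded control library 2 (259). The direction of the TIMP sum depended on the scale: in FPKM it was 1298 ± 237 in the knockdown against 1243 ± 197 in the control libraries. The ratio of summed MMP FPKM to summed TIMP FPKM was 0.554, 0.448 and 0.843 in the knockdown and 0.809, 0.626 and 1.08 in the control libraries. The ratio was lower in each pair, and both groups ranked library 3 highest and library 2 lowest. Mmp14 FPKM per Timp2 FPKM were closer, at 0.843, 0.878 and 0.851 against 0.925, 0.989 and 0.847, with pair 3 level.

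**Figure D4:**
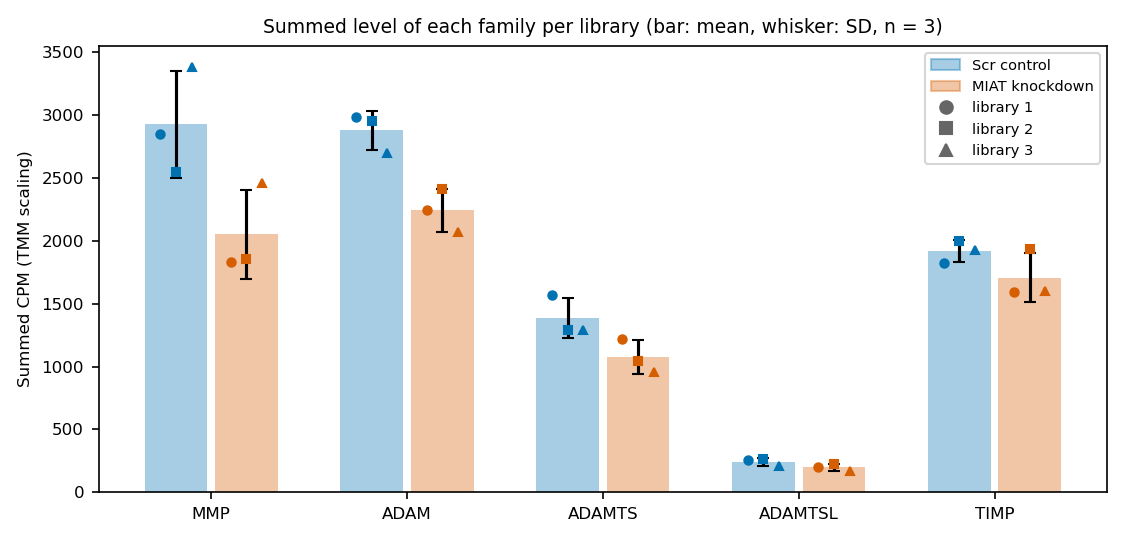
Sum of CPM (TMM scaling) over the members of each family in each library (symbols), with the group mean (bar from 0) and SD (whisker, n = 3). The MMP sums are 2049 ± 355 in knockdown and 2922 ± 425 in control libraries, and the TIMP sums, 1704 ± 195 against 1916 ± 88.2, overlap.

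Genes around these enzymes were taken from 6 lists. Of 15 tested membrane and secreted regulators, 7 fell, 0 rose and 8 did not pass, with a median of -0.30. They include Lrp1, the endocytic receptor that clears proteases and their complexes, at 1748 ± 275 against 3094 ± 613 CPM (-0.82). Reck, a membrane-anchored inhibitor of MMPs, was at 182 ± 18.5 against 266 ± 6.13 CPM (-0.55) and the matrix protein gene Thbs2 had -0.88. Of 13 tested genes of proprotein convertases and plasminogen activation, 2 fell (15.4%, against 11.1% of all tested genes), 0 rose and 11 did not pass. The convertase Pcsk5 (-0.73) and the tissue plasminogen activator Plat (-0.59) fell. Furin, which activates membrane-type MMPs and ADAMs and is named outside the rule, was at 177 ± 13.6 against 203 ± 42.3 CPM and did not pass.

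Of 11 tested partners of ADAM10 and ADAM17, 1 rose, 2 fell and 8 did not pass, with a median of -0.02. That is 9.09% and 18.2%, against 10.5% and 11.1% of all tested genes. Rhbdf2, which encodes iRhom2, the carrier that matures ADAM17, rose from 26.5 ± 2.0 to 34.6 ± 2.59 CPM (0.38). Tspan14, a tetraspanin partner of ADAM10, and Sh3pxd2b, a scaffold of the protrusions that carry these proteases, fell (-0.34 and -0.36). Of 22 tested substrates that ADAMs shed, 1 rose, 4 fell and 17 did not pass. The riser was Hbegf, a growth factor of smooth muscle cells, at 144 ± 34.8 against 119 ± 27.6 CPM (0.28), and Tnf (-2.08, at 0.783 ± 0.464 against 3.71 ± 3.23 CPM), App (-0.46) and Cdh2 (-0.38) led the falls.

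Of 17 tested substrates of ADAMTS enzymes, 11 fell, 0 rose and 6 did not pass, with a median of -0.46. Among them, Fn1, the fibronectin gene, and Tnc each had -0.56 and Fbn1, which encodes fibrillin, -0.54, and Vcan, the versican gene, named outside the rule, was at 1797 ± 188 against 2478 ± 269 CPM (-0.46). Of 15 tested other matrix-degrading proteases, 6 fell, 0 rose and 9 did not pass, with a median of -0.28. Mme, the membrane peptidase neprilysin, had -0.57, the tolloid-like protease Tll1 -0.43 and the lysosomal cathepsin Ctsb -0.42. Thbs1 is in both the regulator and the substrate list, and Dcn is both an ADAMTS substrate and a fibroblast marker. In the same fit 11.1% of all tested genes fell, 10.5% rose and the median of all genes was -0.01. Without the block 0 genes of these lists passed in edgeR. At an unadjusted p under 0.05 in either direction, that fit held 5 of 15, 2 of 13, 3 of 11, 7 of 22, 10 of 17 and 3 of 15 tested genes. These are in the order of the lists, and the share of all tested genes was 19.2%.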

How the data were processed

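RNA-seq of 6 libraries, 3 per group as the titles give them, came as 2 tables. The authors deposited whole-number counts per gene symbol and FPKM. In the deposited tables, 100% of the FPKM above 0 equalled the count divided by a length per gene and by the library total, within a relative tolerance of 1e-06. Aligner, counting program, strand use and genome build stay unknown, being not given in the sources used here. Hence no gene coordinates are printed beyond those of the RefSeq windows, and overlapping genes cannot be separated. Of the members, 71 matched a RefSeq symbol of GRCr8.

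Counts were TMM-scaled, filtered with filterByExpr (13423 of 18631 genes tested) and tested in edgeR 4.0.16 under R 4.3.3, checked on simulated counts. Standard errors were derived from the quasi-likelihood F statistic. The design without a block was primary. Deviations from group means correlated at 0.68, 0.52 and 0.58 within same-numbered pairs and at -0.56 to -0.05 otherwise, so a fit blocked on replicate number, on 2 residual degrees of freedom against 4, is given beside it. Deviations cancel within a group by construction, so the negative values follow in part from the positive ones and are no separate evidence. The pairing rests on these data and shared numbers, since the labels name no shared culture or day and no separate cultures. The p-values therefore rest on spread between libraries that may be technical. DESeq2 1.42.0 and limma 3.58.1 served as alternatives. Members and lists were chosen with earlier results of these data known. Values per library are given for all called members and the 3 most abundant per family by FPKM. Other members reaching 1 CPM are named with group levels or ranges, and up to 3 called genes per list are named. Library values of Mmp3, Mmp9, Mmp10, Mmp13, Adamts8 and Adamts15 were added after their values were seen.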

Additional observations from a re-analysis of the deposited data

How the results depend on the processing

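All members' calls rest on the replicate block or on DESeq2. Without the block, 0 members passed in edgeR with all 6 libraries, scaled by DESeq2 size factors or by total counts, with both other low-count filters, in limma-voom, in limma on log2(FPKM + 1) or log2(FPKM + 0.1) and without each library in turn (range 0 to 0), while DESeq2 called 5 lower and 1 higher. With the replicate block, 1 member was higher and 23 lower, with DESeq2 size factors 1 and 23, with total counts 1 and 18, with no filter 1 and 22, with at least 1 CPM in 3 libraries 1 and 23, in DESeq2 1 and 20 and in limma-voom 1 and 23. A length correction added after seeing the data gave 1 and 19 with the block, and leaving out pairs gave 0 to 1 higher and 13, 9 and 27 lower without pairs 1, 2 and 3. Shares of all genes are not given for the length correction or without pairs. They are also not given for the blocked fits with DESeq2 size factors, other filters or limma-voom.

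The MMP median (-0.42 without the block) was -0.35 with the replicate block, and with the block -0.36 with DESeq2 size factors, -0.24 with total counts, -0.34 with no filter, -0.35 with at least 1 CPM in 3 libraries and -0.38 with the length correction. Without the block it was -0.31 with total counts, -0.38 with at least 1 CPM in 3 libraries, -0.23 with log2(FPKM + 1) and -0.23 with log2(FPKM + 0.1), and without single libraries -0.47 to -0.10, the latter when control library 1 was left out. Blocked medians were -0.16, -0.37 and -0.47 without pairs 1, 2 and 3. The ADAMTS median (-0.44) was -0.32 with total counts, -0.21 and -0.27 on the 2 FPKM scales, -0.58 to -0.26 without single libraries and, with the replicate block, -0.28 with total counts, -0.34 with the length correction and -0.50 to -0.33 without single pairs. The ADAM median (-0.19) was -0.082 with total counts and the block and -0.078 and -0.081 on the 2 FPKM scales. Family medians were negative under all alternatives run. Timp1 (0.037 with the block) was -0.16 to 0.20 without single libraries, negative without knockdown library 2 (-0.16) or control library 3 (-0.11), and -0.088 with the length correction. Adamts2 was -0.75 to 0.047 without single libraries, positive only without control library 3. The cause of these shifts was not tested. Counts limit the members under 1 CPM, of which 24 were not tested.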

Other observations

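Mmp1, an interstitial collagenase gene whose upstream window holds an AP-1 site and a TATA box, was too scarce to test. It had 6 counts in knockdown library 3, 7 in control library 1 and 0 in the others, so it was read in knockdown library 3 and control library 1, which were also the highest of their groups for Mmp3, Mmp9 and Mmp13. Mmp1b, a near copy whose reads cannot be separated with certainty, had 2, 0 and 3 against 4, 0 and 4 counts.

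Among the members that fell, Adamts6, Mmp11, Timp2 and Timp3 overlap a protein-coding gene in the GRCr8 annotation, and strand use in counting is unknown. Syn3, whose span holds Timp3, was at 2.10 ± 0.0878 against 3.39 ± 0.263 CPM (SD, n = 3). Cep295nl, which overlaps Timp2, was at 9.48 ± 0.732 against 11.8 ± 1.53 CPM, and Chchd10, which overlaps Mmp11, at 0.384 ± 0.165 against 0.445 ± 0.106 CPM. The opposite-strand gene Mmp24os was at 20.1 ± 4.38 against 20.0 ± 3.66 CPM, while Mmp24 itself averaged 0.164 CPM.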
